A study of Mus musculus with 12 samples.

Results

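The immediate early genes Egr1, Egr2, Egr3, Fos, Fosb, Jun, Junb, Atf3, Zfp36 and Ier2 were followed across 5 cell fractions sorted from mouse back skin. They are 10 of the 18193 genes measured by a probe set that the platform annotation ties to 1 gene, and each is represented by its probe set of highest mean log2 intensity over the 12 arrays. The basal fractions were sampled 3 times each (BL LRC and BL non-LRC), and the others 2 times each (SL LRC, SL non-LRC and GL). From what is known of the study rather than from the labels, BL stands for the basal, SL for the spinous and GL for the granular layer, and LRC for label-retaining cell. All mice carried 4 transgenes: K5-tTA with pTRE-H2B-GFP for the label, and K14-CreER with the reporter Rosa-tdTomato. The keratin 5 promoter, active in basal keratinocytes, drives the tTA that switches on the histone label, and the keratin 14 promoter drives the tamoxifen-dependent Cre. Every group had received doxycycline at 1 g per kg of food for 2 weeks, which shuts off the label so that dividing cells dilute it. Every group had also received a single tamoxifen dose of 75 mg per kg, 1 week before the skin was taken at the second telogen, the resting phase of the hair cycle. Each array was hybridised with cDNA amplified from 5 ng of total RNA. The comparisons ask how infrequently and frequently dividing cells of the same layer differ, and how the layers differ from each other. Whether the samples of a group came from separate animals is not stated in the labels, so the p-values reflect the spread between samples alone. In bulk samples, fewer cells of a type and less RNA per cell cannot be told apart, which holds for every difference given here.

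Immediate early genes are transcribed within minutes of a stimulus, because their promoters are already occupied by factors that only need to be phosphorylated. Growth factors, stress and wounding act through MAP kinases on serum response factor, which binds CArG boxes together with ETS partners such as Elk1, and on factors of the CREB and ATF family, which bind the cAMP response element (CRE). The products are mostly transcription factors: EGR proteins bind GC-rich sites, and Fos and Jun proteins pair to form AP-1. In epidermis AP-1 and EGR factors are known regulators of keratinocyte growth and terminal differentiation. Many of these genes are also known to be induced while tissue is dissociated into cells.

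Promoter sequence was available for 7 of the 10 members, from RefSeq windows of the build GRCm38.p6 that reach from 250 bases before to 50 bases after an annotated start. Stretches of 4 are shown because they carry some of the motifs searched for and because these members follow different patterns across the fractions. Capitals mark the CArG box and the short CRE motif (read as ACGTCA on the printed strand) in Egr2, and the EGR, ETS and CArG motifs in Zfp36. They mark the short CRE motif TGACGT and the TATA box in Fos, and the AP-1 type site in Jun.
Egr2, chr10:67537789-67537818, + strand, bases -80 to -51: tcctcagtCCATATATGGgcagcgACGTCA
Zfp36, chr7:28379269-28379338, - strand, bases -110 to -41: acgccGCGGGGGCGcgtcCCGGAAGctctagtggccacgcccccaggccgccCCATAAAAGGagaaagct
Fos, chr12:85473810-85473869, + strand, bases -80 to -21: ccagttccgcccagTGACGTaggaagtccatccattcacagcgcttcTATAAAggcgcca
Jun, chr4:95052233-95052292, - strand, bases -70 to -11: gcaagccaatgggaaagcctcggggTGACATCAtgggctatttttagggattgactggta

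All 4 stretches lie upstream of an annotated start of their gene. Egr2 has 5 annotated starts, some of them before this stretch, so it may also fall within a longer Egr2 transcript. Both strands of every window were searched for 9 motifs. A CArG box was found in 4 of the 5 overlapping or neighbouring windows of Egr2 and in the window of Zfp36, against 1.63% of all 32851 windows. The overlapping Egr2 windows share the same box, CCATATATGG, and the neighbouring one holds CCTTTTTTGG, so these are not 4 separate boxes. The short CRE motif TGACGT, found in Egr2, Fos and Atf3, occurs in 7.51% of windows, and the full CRE TGACGTCA, which contains it, in 1.79% and in no member's window. The site TGACATCA, found in Jun, occurs in 3.62% of windows, and the related AP-1 site TGACTCA, found in no member, in 5.2%. The EGR site GCGGGGGCG, found in Zfp36 and Fosb, occurs in 2.91% of windows, and its variant GCGTGGGCG, found in no member, in 0.612%. The ETS site CCGGAAG of Zfp36 occurs in 8.86% of windows. The TATA box letters TATAAA occur in 13.6%, and were found in Fos at bases -33 to -28. In Junb they lie from the annotated start onward (bases 1 to 6), not before it. A match describes letters in these windows and no binding was measured.

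The arrays fell into 2 sets by the signal of BioB, a bacterial control spiked into each hybridisation. Its level was 495 ± 29.5 units (mean ± SD, n = 4) on the first array of each BL group and on both SL non-LRC arrays, and 3370 ± 305 units (n = 8) elsewhere. In BL each label group holds 1 array of the low set, whereas in SL the set coincides with the label, so that within SL the 2 cannot be told apart. A fit with the set as a term takes the size of the set difference from the BL arrays. There the low set also differs in sex-linked signal, since 3 Y-linked genes were not above background on BL LRC 1 and BL non-LRC 1 and were above it on the other 10 arrays. Between 68.1% and 78.4% of genes lay above each array's background floor, and all 10 members lay above it on all 12 arrays, the lowest margin being 5.78-fold (Egr3). As a sign of RNA integrity, the 3' probe set of Actb minus its 5' probe set was -0.20 log2 units on average in both BL groups, -0.19 in SL LRC, -0.067 in SL non-LRC and -0.060 in GL. For Gapdh the same measure was 0.82 in BL LRC, 0.80 in BL non-LRC, 0.82 in SL LRC, 0.93 in SL non-LRC and 0.95 in GL. The GL arrays differed in it, with 1.22 on GL 1 and 0.68 on GL 2.

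Basal marker sums were lowest and granular marker sums highest on the GL arrays, spinous marker sums did not follow the layer names in every group, and markers of other cell types were present. The summed intensity of 8 basal keratinocyte markers was 82524 to 86641 in GL, against 135750.0 to 145514 in BL LRC. That of 7 granular markers was 13685 to 19993 in GL, against 6239.8 to 7659 in BL LRC, and Flg was not above background on any BL array. The 6 spinous markers averaged a sum of 97347 in BL LRC, 67207 in BL non-LRC, 132716 in SL LRC, 85434 in SL non-LRC and 103328 in GL, so that the SL non-LRC mean lay below that of BL LRC. Infundibulum and sebaceous markers summed to 15393 to 17404 in BL LRC against 34392 to 63843 in BL non-LRC, and to 30612 to 31064 in SL LRC against 74508 to 83315 in SL non-LRC. In each layer 8 of these 9 markers were lower in LRC (limma, adjusted p under 0.05). Langerhans and myeloid markers summed to 27194 to 58663 in GL, against at most 8573 in SL and 3163 in BL, and 7 of 8 were higher in GL than in SL. T cell markers were higher as well, 4 of 5 measured. Their sums were 27055 on GL 1 and 8141 on GL 2, against at most 4394 in SL and 8009 in BL. The sum of GL 2 thus lay close to that of the highest BL array. Bulge and germ markers summed to 28861 to 29055 in GL, against 2760.2 to 2982 in BL LRC. Fibroblast marker sums were small but also highest in GL, 835 and 703 units, against at most 547 on the other arrays.

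**Figure D1:**
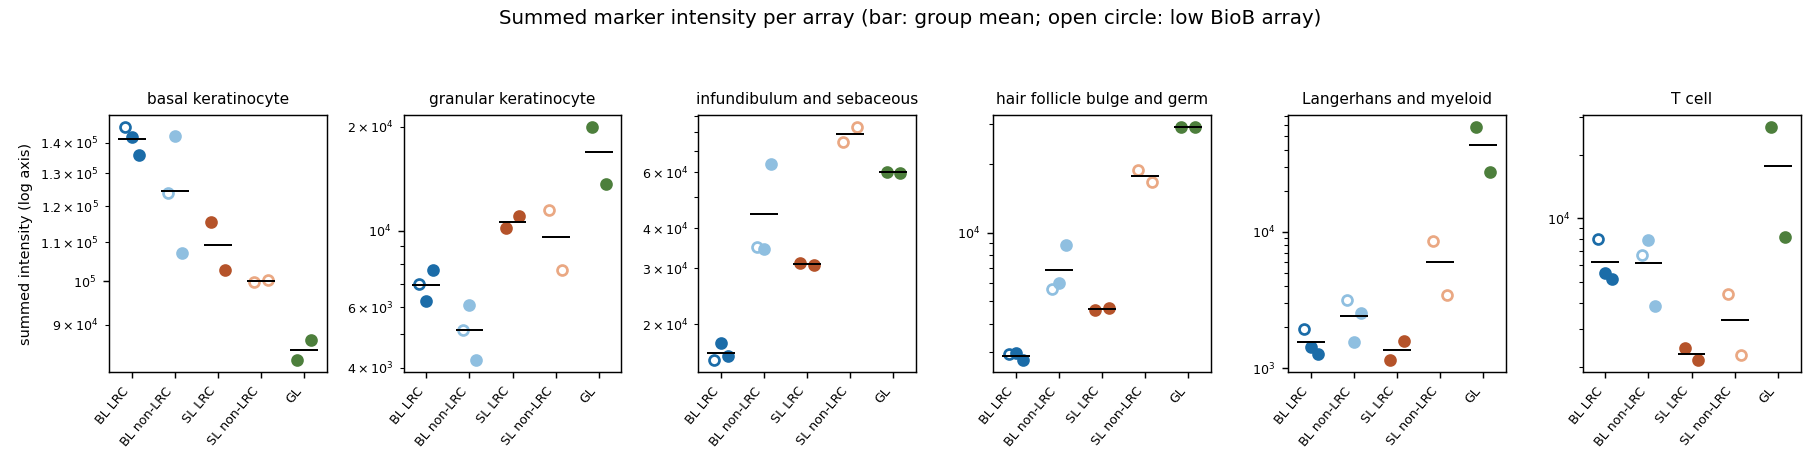
Summed intensity of 6 marker lists on each array (log axis, intensity units) in the 5 fractions, with bars for group means and open circles for arrays of low BioB signal. Infundibulum and sebaceous sums of LRC arrays lie below those of non-LRC arrays of the same layer, and Langerhans and myeloid sums are 27194 and 58663 in GL.

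Most members were low in BL and higher outside it, and 6 of 10 differed among the groups by the moderated F test (limma, adjusted p under 0.05), against 16.9% of all genes. These were Egr2 (adjusted p = 3.48e-08), Egr1 (1.99e-05), Jun (9.90e-05), Zfp36 (0.000238), Egr3 (0.000653) and Fos (0.00744). Ier2 (0.0658), Fosb (0.0746), Junb (0.195) and Atf3 (0.267) did not pass. The members were not uniform: Egr2, Egr3 and Jun also differed by label in at least 1 layer, while Fos, Fosb and Atf3 stood highest on average in SL LRC.

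**Figure D2:**
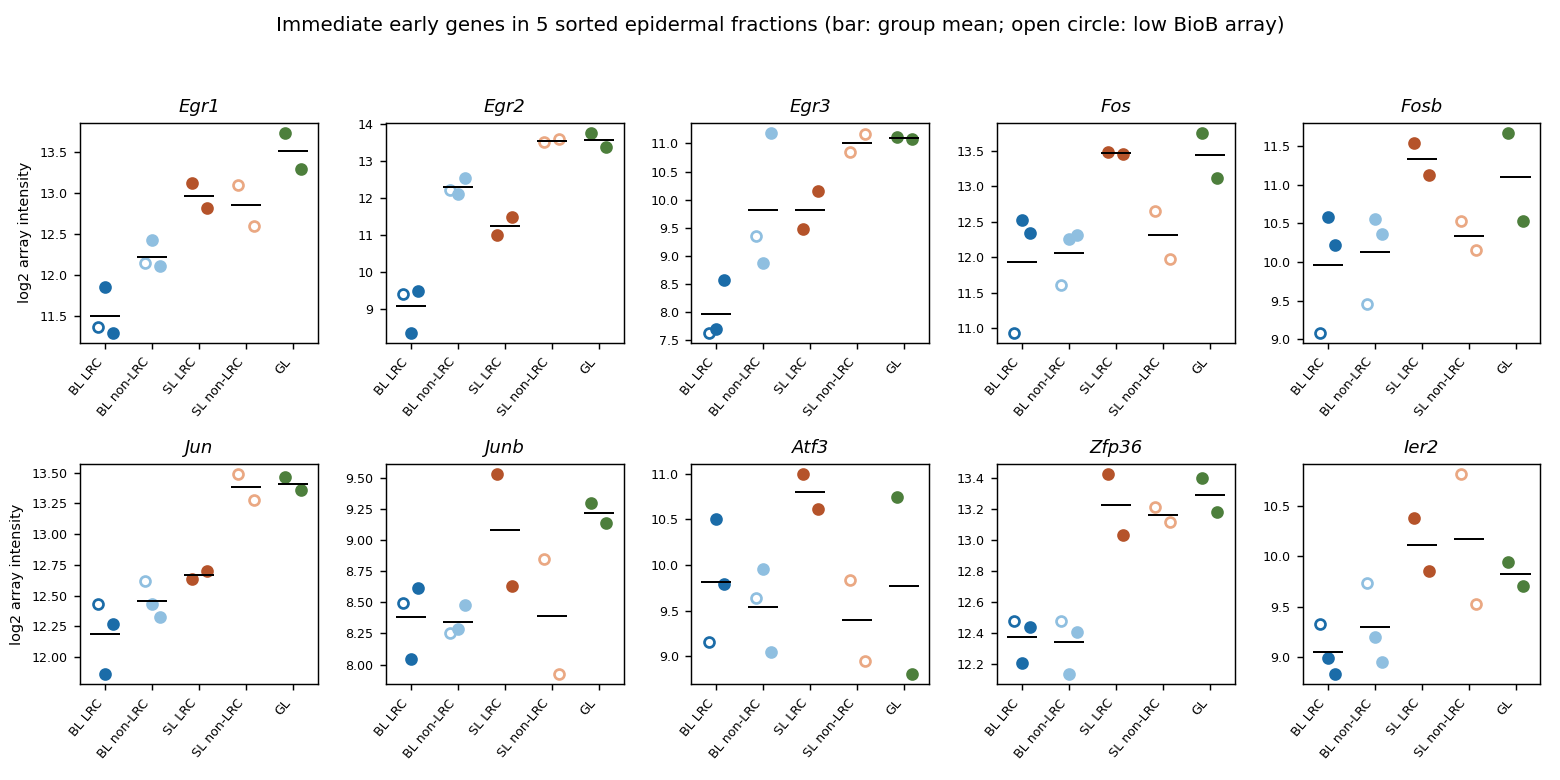
Log2 array intensity of each member on each of the 12 arrays by fraction, with a bar for the group mean and open circles for arrays of low BioB signal. Each panel has its own axis range, so heights compare arrays within a gene and not genes with each other. All BL LRC arrays lie below all BL non-LRC arrays for Egr1, Egr2 and Egr3.

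Egr2, a zinc finger factor best known for driving myelination by Schwann cells and, in mouse skin, for marking hair shaft cells, separated LRC from non-LRC most clearly. Its intensity was 675, 325 and 716 on the BL LRC arrays, against 4765, 4449 and 6033 on the BL non-LRC arrays. In SL it was 2042 and 2869 in LRC, against 11722 and 12360.3 in non-LRC. The label groups did not overlap in either layer, and the lowest BL non-LRC array exceeded both SL LRC arrays. Egr2 fell by 3.22 ± 0.25 log2 units in BL LRC (SE, n = 3 and 3, adjusted p = 2.66e-06), a 9.33-fold difference, and no gene of the array had a smaller adjusted p in that comparison. In SL LRC it fell by 2.31 ± 0.30 (n = 2 and 2, adjusted p = 0.000398), a 4.97-fold difference, and by 2.13 with the array set term (adjusted p = 0.0140). Within BL the difference was -3.42 between the arrays of high BioB and -2.82 between those of low BioB.

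A second Egr2 probe set, above background on all 12 arrays, gave label differences of -3.16 in BL and -3.31 in SL. Both BL and SL calls held in every alternative run, including each fit without 1 array. The infundibulum and sebaceous marker sums moved the same way in both layers. So did the sums of 7 bulge and germ markers, which averaged 2899.6 units in BL LRC against 6832 in BL non-LRC, and 4631.5 in SL LRC against 17719.5 in SL non-LRC. Of these 7 markers 2 were lower in BL LRC and 4 in SL LRC, and their group means stood in the same order as those of Egr2. In SL LRC 3 of 8 Langerhans and myeloid markers and 2 of 7 melanocyte markers were lower as well. Hair shaft and inner root sheath markers, 7 measured, gave 0 label calls in either layer (limma). Their sums averaged 377 units in BL LRC against 267 in BL non-LRC, and 1472 in SL LRC against 1471 in SL non-LRC. In BL LRC 2 of them, and in BL non-LRC 3, were never above background. Of the 6 spinous markers 2 were higher in BL LRC and 3 in SL LRC than in the non-LRC of the same layer. The part of these cell types in the Egr2 difference was not tested.

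Along the layers Egr2 was 14045 and 10655 in GL, to either side of the SL non-LRC arrays. It rose by 1.71 ± 0.20 in SL relative to BL (adjusted p = 4.92e-05) and by 2.89 ± 0.25 in GL relative to BL (7.42-fold, adjusted p = 4.17e-07). These comparisons share their BL arrays. The pooled SL and BL arrays overlap nonetheless, because SL LRC lies below BL non-LRC: the order of the means was low to high, BL LRC, SL LRC, BL non-LRC, then SL non-LRC, then GL, and only the last pair overlapped. Against both SL groups together Egr2 rose by 1.18 ± 0.26 in GL (adjusted p = 0.00919), a call lost without GL 1 (adjusted p = 0.167). Taken apart, a split added after the data were seen, GL exceeded SL LRC by 2.34 ± 0.30 (adjusted p = 9.34e-05), whereas the difference from SL non-LRC was 0.02 ± 0.30 (adjusted p = 0.983).

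Egr3, a relative of Egr2 needed for muscle spindle development and described in human keratinocytes as a regulator of late differentiation, had the same direction with wider scatter. It measured 198, 209 and 379 units in BL LRC, against 653, 472 and 2341 in BL non-LRC. In SL it was 713 and 1146 in LRC, against 1839 and 2292 in non-LRC, and GL measured 2224 and 2168. The label groups did not overlap in either layer, but BL non-LRC 3 stood 1.38 log2 units above its group mean, above both GL arrays.

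Egr3 fell by 1.84 ± 0.43 in BL LRC (3.58-fold, adjusted p = 0.0398). This call is close to its threshold: it held in only 3 of the 12 fits without 1 array, those without BL LRC 3, BL non-LRC 1 or BL non-LRC 2 (highest adjusted p = 0.155), and was lost with the high-BioB arrays alone (adjusted p = 0.184). In SL LRC the difference was -1.18 ± 0.53 (adjusted p = 0.264, or 0.0388 with the replicate number as a block in BL). Egr3 rose by 1.52 ± 0.34 in SL relative to BL (adjusted p = 0.0129, lost without SL LRC 2 or SL non-LRC 2, highest 0.0853) and by 2.21 ± 0.43 in GL relative to BL (adjusted p = 0.00149). A second Egr3 probe set was above background on only 7 of 12 arrays. It was not above it on either SL LRC array and on only 1 of 3 BL LRC arrays, so it gives no size for the label differences. With both probe sets averaged, the calls for the BL label (adjusted p = 0.0931) and for SL relative to BL (0.321) were lost.

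Egr1, the family member most widely used as a readout of MAP kinase signalling, rose with the layers and differed less by label. It measured 2626, 3697 and 2500.2 units in BL LRC, against 4507, 5479 and 4422 in BL non-LRC. SL LRC gave 8926 and 7197, SL non-LRC 8807 and 6179, and GL 13689 and 10059. Neighbouring groups in the order BL LRC, BL non-LRC, then SL non-LRC, SL LRC and GL did not overlap except both SL groups, so the layers stand apart on all arrays.

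Egr1 rose by 1.05 ± 0.15 in SL relative to BL (adjusted p = 0.000324) and by 1.66 ± 0.19 in GL relative to BL (adjusted p = 7.57e-06). The difference of GL from SL was 0.61 ± 0.20 (adjusted p = 0.0694), which passed with the block in BL (0.0279) and without SL non-LRC 1 (0.0452). In BL LRC it was -0.72 ± 0.19 without reaching the threshold (adjusted p = 0.0680, range over the alternatives 0.0213 to 0.364). It passed with the replicate number as a block in BL (adjusted p = 0.0213) and without BL LRC 2 (adjusted p = 0.0334). Same-numbered BL arrays deviate together, but BL LRC 1 and BL non-LRC 1 are also the BL arrays of low BioB. Here and below, the block in BL thus includes the array set. In SL the label difference was 0.12 ± 0.23 (adjusted p = 0.866).

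Jun, the AP-1 subunit that in mouse epidermis supports proliferation through the EGF receptor, resembled Egr2 in SL but not in BL. It measured 5521, 3718 and 4943 units in BL LRC, against 6289, 5509 and 5144 in BL non-LRC, and these groups overlap. SL LRC gave 6351 and 6652, against 11510.2 and 9954 in SL non-LRC, while GL gave 11290.4 and 10493. All GL and SL non-LRC arrays lie above the SL LRC arrays, which lie above every BL array.

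Jun fell by 0.72 ± 0.18 in SL LRC relative to SL non-LRC (1.65-fold, adjusted p = 0.0347). With the array set term the difference was -0.42 (adjusted p = 0.404), and the call was lost without any 1 of the 4 SL arrays (highest adjusted p = 0.217). In BL the label difference was -0.27 ± 0.15 (adjusted p = 0.543). Jun rose by 0.70 ± 0.12 in SL relative to BL (adjusted p = 0.00152) and by 1.09 ± 0.15 in GL relative to BL (adjusted p = 6.58e-05). The other Jun probe set gave -0.36 for the SL label, 0.65 for SL relative to BL and 1.68 for GL relative to BL. The 2 Jun probe sets differed most between GL and SL. GL relative to SL was 1.04 in the other set and 0.38 in the one used, and GL relative to SL non-LRC was 0.85 and 0.02.

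Junb, an AP-1 subunit that often opposes Jun and whose loss together with Jun in mouse epidermis causes a psoriasis-like disease, passed no comparison. Its intensity was 360.5, 263 and 391 units in BL LRC, against 306, 311 and 357 in BL non-LRC. It was 740.1 and 396 in SL LRC, 462 and 243 in SL non-LRC, and 630.3 and 562 in GL. Neighbouring groups in the order of the means overlapped throughout, although both GL arrays lay above all 6 BL arrays (difference 0.86 ± 0.31, adjusted p = 0.0724).

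Fos and Fosb, leucine zipper proteins that bind DNA as partners of Jun proteins, followed another pattern, with SL LRC and GL above the rest. Fos measured 1951, 5866 and 5165 units in BL LRC, against 3115, 4902 and 5101 in BL non-LRC. SL LRC gave 11497 and 11283, against 6402 and 4028 in SL non-LRC, and GL gave 13855 and 8902. All SL LRC and GL arrays lay above every BL and SL non-LRC array, while SL non-LRC overlapped with BL.

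Fos rose by 1.55 ± 0.36 in SL LRC relative to BL LRC (adjusted p = 0.0278) and by 1.45 ± 0.32 in GL relative to BL (adjusted p = 0.00445). The GL call was lost without GL 1 (adjusted p = 0.133), and the SL LRC call without BL LRC 1, SL LRC 1 or SL LRC 2 (highest adjusted p = 0.190). With the high-BioB arrays alone these differences were 1.05 (adjusted p = 0.0138) and 1.08 (adjusted p = 0.000552). For both SL groups against both BL groups the difference was 0.90 ± 0.26 (adjusted p = 0.0529), which passed with the block in BL (0.00225), with the array set term (0.000604) and without any 1 of BL LRC 1, 2, 3 and BL non-LRC 3 (lowest 0.0242).

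For the SL label Fos differed by 1.17 ± 0.40, above 0 where Egr2 and Jun lay below it (adjusted p = 0.119). It was 0.076 with the array set term (adjusted p = 0.962) and passed with the block in BL (adjusted p = 0.00952) and without BL LRC 1 (adjusted p = 0.0179). On BL LRC 1 and BL non-LRC 1, arrays of low BioB, the deviation of Fos from its group means was -0.997 and -0.46 log2 units. The BL label difference was -0.13 ± 0.32 over all arrays, 0.14 between high-BioB arrays and -0.67 between low-BioB arrays.

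Fosb, whose product is long-lived in some spliced forms, measured 543, 1536 and 1193 units in BL LRC, against 705, 1508 and 1314 in BL non-LRC. It was 2978 and 2241 in SL LRC, 1471 and 1144 in SL non-LRC, and 3260.3 and 1472 in GL. Both SL LRC arrays lay above all BL and SL non-LRC arrays, and GL 2 fell within the BL range. Over all arrays with no further term no Fosb difference passed: it was 1.37 ± 0.41 for SL LRC relative to BL LRC (adjusted p = 0.0944), 0.99 ± 0.45 for the SL label (adjusted p = 0.269) and 1.05 ± 0.37 for GL relative to BL (adjusted p = 0.0589). With the block in BL the values for SL LRC relative to BL LRC and GL relative to BL passed (adjusted p = 0.00957 and 0.00613, the GL value also without BL LRC 2, BL non-LRC 2 or GL 2, lowest 0.0289), and so did SL relative to BL (0.79 ± 0.29, adjusted p = 0.153, or 0.0209 with the block). With the array set term SL relative to BL was 0.99 (adjusted p = 0.00686).

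Atf3, a stress-induced ATF factor that represses many targets as a homodimer, was the least regular member. It measured 568, 1456 and 889 units in BL LRC, against 794, 989.8 and 528 in BL non-LRC. SL LRC gave 2049 and 1566, against 911 and 495 in SL non-LRC, whereas the GL arrays gave 1720 and 446 and span most of the range. SL LRC lay above all BL and SL non-LRC arrays, and no comparison passed. The SL label difference was 1.42 ± 0.52 (adjusted p = 0.155) and that for GL relative to BL 0.09 ± 0.42 (adjusted p = 0.927).

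Zfp36 encodes tristetraprolin, which binds AU-rich elements and speeds the decay of messages such as Tnf. It measured 5701, 4710.1 and 5529.6 units in BL LRC, against 5696, 4487 and 5422 in BL non-LRC. In SL it was 11008 and 8365 in LRC, against 9474 and 8867 in non-LRC, and GL gave 10823 and 9269.6. Every SL and GL array lay above every BL array, and label groups overlapped in both layers.

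Zfp36 rose by 0.84 ± 0.12 in SL relative to BL (adjusted p = 0.000264), by 0.86 ± 0.16 in SL LRC relative to BL LRC (adjusted p = 0.00772) and by 0.82 ± 0.16 in SL non-LRC relative to BL non-LRC (adjusted p = 0.0142). The SL LRC call was lost without SL LRC 1 (adjusted p = 0.174), and the SL non-LRC call without BL non-LRC 2 or either SL non-LRC array (highest 0.180), or once a term for the array set was fitted (0.0657). It rose by 0.94 ± 0.15 in GL relative to BL (adjusted p = 0.000208). The label differences were 0.03 ± 0.15 in BL (adjusted p = 0.967) and 0.07 ± 0.18 in SL (adjusted p = 0.915).

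Ier2, a small nuclear protein induced by growth factors, measured 641, 511 and 456 units in BL LRC, against 849.9, 588 and 494 in BL non-LRC. SL LRC gave 1332 and 922, SL non-LRC 1799 and 737, and GL 986 and 836. Neighbouring groups overlapped throughout. Ier2 rose by 0.97 ± 0.24 in SL relative to BL (adjusted p = 0.0240), a call lost without SL LRC 1, SL non-LRC 1, BL non-LRC 2, BL LRC 2 or BL LRC 3 (highest adjusted p = 0.180). Relative to BL the GL difference was 0.65 ± 0.30 (adjusted p = 0.168, or 0.0306 with the high-BioB arrays alone).

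Counted over the members, LRC relative to non-LRC gave 2 lower and 0 higher in BL (Egr2 and Egr3), where 1.53% of all genes were called and 1.23% called lower. In SL it again gave 2 lower and 0 higher (Egr2 and Jun), against 4.19% of all genes called and 2.7% called lower. The median member difference was -0.20 in BL and 0.09 in SL, beside 0.046 and -0.0013 over all genes. Members whose label groups did not overlap numbered 3 of 10 in BL and 6 of 10 in SL, beside 16.4% and 47.5% of all genes. The label effect in SL minus that in BL passed for 0 members and for 0 of all genes in limma, while 1291 genes had an unadjusted p under 0.05. Among the members 3 were below that unadjusted level: Egr1 (0.84 ± 0.29, adjusted p = 0.596), Fos (1.30 ± 0.51, adjusted p = 0.633) and Egr2 (0.91 ± 0.39, adjusted p = 0.678).

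Between layers the members moved upward. In SL relative to BL 6 rose and 0 fell (Egr1, Egr2, Egr3, Jun, Zfp36 and Ier2), against 5.03% of all genes called and 2.83% called higher. All 10 differences were above 0, with a median of 0.87 beside 0.0025 over all genes, and 3 of 10 had no overlap between the pooled arrays, beside 4.12% of all genes. In SL LRC relative to BL LRC 5 rose (Egr1, Egr2, Egr3, Fos and Zfp36), against 2.81% of all genes called and 1.41% called higher, and none of the 10 overlapped, beside 29.8%. Egr3 (1.85 ± 0.48, adjusted p = 0.0494) was at its threshold there and held in 4 of 12 fits without 1 array, those without BL LRC 3 or a BL non-LRC array (highest 0.377). In SL non-LRC relative to BL non-LRC 3 rose (Egr2, Jun and Zfp36), against 1.56% of genes called and 1.17% called higher, and 4 did not overlap, beside 26.7%. Of these, Egr2 (1.26 ± 0.28, adjusted p = 0.0282) was lost without BL non-LRC 1, BL non-LRC 2 or either SL non-LRC array (highest 0.196) and with a term for the array set (1.13, adjusted p = 0.122), and Jun (0.93 ± 0.17, adjusted p = 0.00738) without SL non-LRC 1 (0.152). Egr3 (1.195 ± 0.48, adjusted p = 0.313) passed there without BL non-LRC 3 (0.00511) and with the block in BL (0.0391).

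In GL relative to BL 6 members rose and 0 fell (Egr1, Egr2, Egr3, Fos, Jun and Zfp36), where 17.1% of all genes were called and 8.66% were higher. The median difference was 1.07 beside -0.023 over all genes, and 6 members did not overlap, beside 26.9%. In GL relative to SL 1 member rose, Egr2, against 8.3% of genes called and 4.39% called higher, and 1 did not overlap, Egr1, beside 25.9%. Against SL LRC alone 2 rose in GL (Egr2 and Jun, 0.74 ± 0.18, adjusted p = 0.0160), where 9.37% of genes were called and 5.34% called higher, and 4 did not overlap, beside 49.4%. Against SL non-LRC alone 0 passed in limma and 3 had an unadjusted p under 0.05, where 4.81% of genes were called and 1.98% called higher, and 4 did not overlap, beside 47.9%. The sums of 6 lists of other cell types were higher on both GL arrays than on any SL or BL array. These were Langerhans and myeloid, T cell, bulge and germ, hair shaft and inner root sheath, melanocyte and fibroblast markers. For T cell markers the gap was narrow on GL 2 (8141, against 8009 on BL LRC 1). The part of these cell types in the GL values was not tested. Basal-layer arrays are shared by the comparisons with BL, so their counts are not independent.

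**Figure D3:**
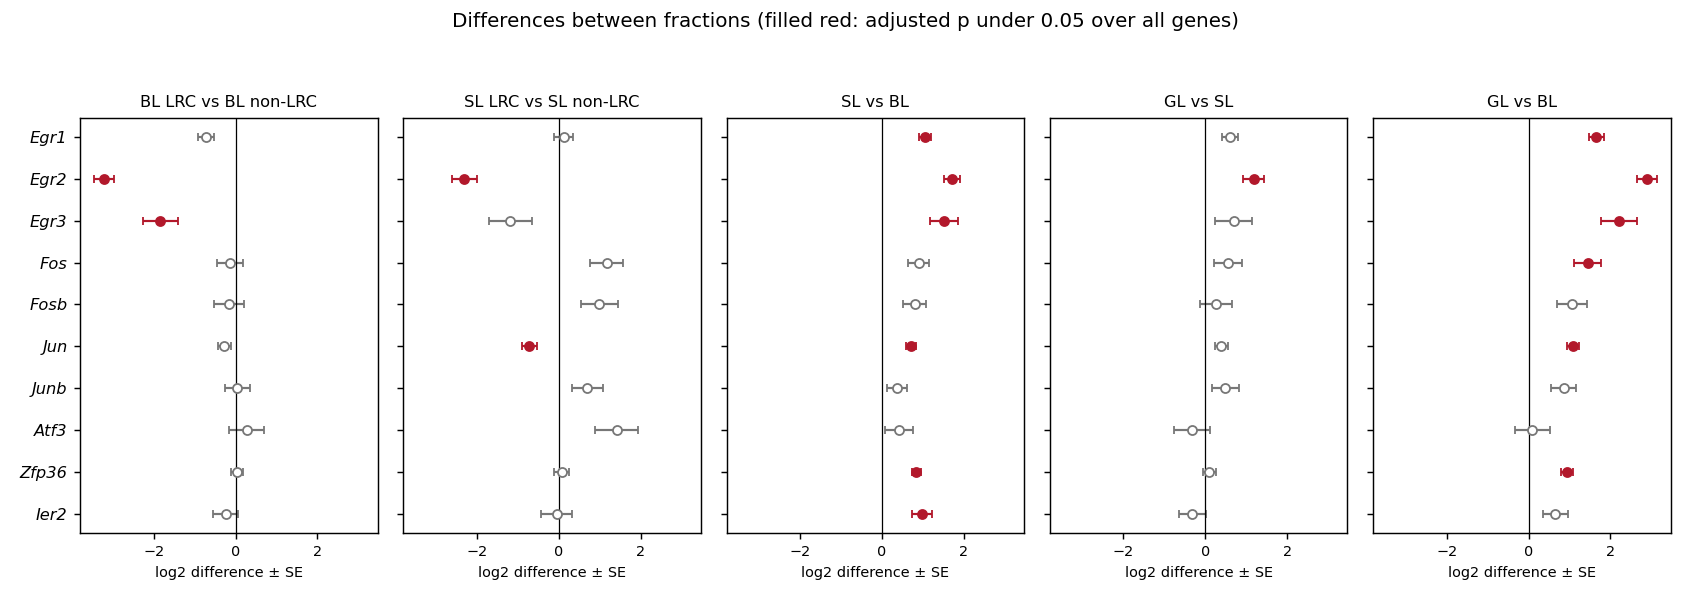
Log2 difference with its moderated standard error for each member (rows) in 5 comparisons (panels), positive where the group named first is higher. Filled red points have an adjusted p under 0.05 over all genes. In SL relative to BL all 10 points lie above 0, while in both label comparisons Egr2 lies furthest below 0.

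Deviations of single arrays from their group means show how the members varied among themselves once the group was removed. Over the 12 arrays these deviations correlated at r = 0.93 for Fos and Fosb, 0.85 for Egr1 and Atf3, 0.75 for Fosb and Atf3, and 0.70 for Junb and Zfp36. The most negative values were -0.59 for Egr1 and Egr2, -0.56 for Fosb and Jun, -0.55 for Fos and Jun, and -0.50 for Egr3 and Ier2. These are descriptions over 12 arrays that share labelling and scaling, and groups of 2 arrays give mirror-image deviations. With the group left in, Egr2 went with Egr3 (r = 0.91) and Jun (0.85), and not with Atf3 (-0.25), while Fos and Fosb stayed together (0.96). Egr1 tracked the mean of the other 9 members most closely (r = 0.94) and Atf3 least (0.27).

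**Figure D4:**
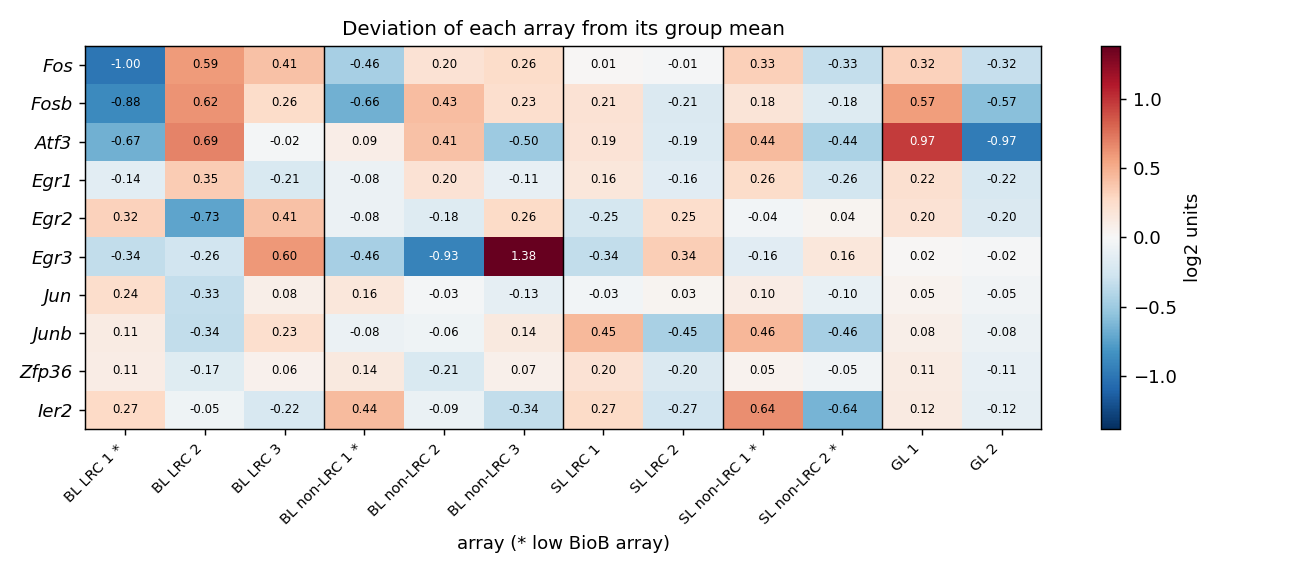
Deviation of each array from its group mean in log2 units, for each member (rows) and array (columns), with an asterisk for arrays of low BioB signal. Fos and Fosb are low together on BL LRC 1 (-0.997 and -0.88) and BL non-LRC 1, and Atf3 differs by 0.97 to either side of its mean in GL.

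The mean standardised level of the 10 members was -0.88 in BL LRC, -0.40 in BL non-LRC, 0.65 in SL LRC, 0.38 in SL non-LRC and 0.90 in GL. Arrays of BL LRC (-1.10 to -0.73) did not overlap with those of BL non-LRC (-0.47 to -0.34), and no BL array overlapped with an SL or GL array. Taken singly, only 3 of the 10 members did not overlap between the BL label groups (Egr1, Egr2 and Egr3), beside 16.4% of all genes. For 3 others, Junb, Atf3 and Zfp36, the BL label difference lay above 0. Among 10361 other genes above background on all 12 arrays, those most like this mean over the arrays were Plxdc2 (r = 0.936), Dlgap4 (0.931), Cgn (0.930), Hr (0.925), Plpp6 (0.918) and Sort1 (0.917). Sort1, for example, had a geometric mean intensity of 798 in BL LRC, 1173 in BL non-LRC, 3666 in SL LRC, 3606 in SL non-LRC and 6351 in GL.

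Other immediate early genes shared the layer direction in part. Of 40 listed, 39 were measured, and 17 differed among the groups by the F test, against 16.9% of all genes. In BL 0 differed by label in limma (median 0.071), beside 1.53% of all genes. In SL 2 did, Klf4 and Ier3, of which 1 was higher and 1 lower in LRC, beside 4.19% of all genes. In SL relative to BL 4 rose and 0 fell (Ier5, Klf10, Sgk1 and Trib1), with a median of 0.15. In GL relative to BL 11 rose and 6 fell, with a median of 0.49. Of all genes 5.03% were called in SL relative to BL (2.83% higher) and 17.1% in GL relative to BL (8.66% higher). Ier5, a relative of Ier2, measured 5770.3 and 4447 units in GL, against 461 to 1044 in BL, and rose by 2.77 ± 0.23 (adjusted p = 3.60e-07). Sgk1, a kinase downstream of PI3 kinase, rose by 1.46 ± 0.16 (adjusted p = 5.42e-06) and Dusp6, an ERK phosphatase, by 1.54 ± 0.25 (adjusted p = 0.000308).

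Ccn1, a secreted matrix protein, went the other way in GL. It measured 87.2 and 173 units there, against 1007 to 2065 in BL, and fell by 3.40 ± 0.29 (adjusted p = 4.69e-07). Ptgs2, the inducible prostaglandin synthase, measured 2.83 and 6.76 units in GL, below the background floors of 27.7 and 22.4 units on these arrays. It was at least 6.21-fold lower in GL than in BL (limma, adjusted p = 2.32e-05). Induced genes of the same class therefore lay on both sides of 0 in GL.

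Among the other AP-1 and ATF subunits, 17 of 19 were measured, and 3 differed among the groups by the F test, against 16.9% of all genes. In SL relative to BL 0 passed in limma (median 0.021), and in GL relative to BL 1 rose, the small Maf protein Maff (0.76 ± 0.25, adjusted p = 0.0459). For the label, 0 passed in BL and 1 fell in SL, Jdp2, a repressor of AP-1. Of all genes 5.03% were called in SL relative to BL, 17.1% in GL relative to BL, 1.53% for the BL label and 4.19% for the SL label. Jdp2 measured 10.7 and 52.9 units in SL LRC, of which 1 array was above background, against 120.01 and 259.7 in SL non-LRC (adjusted p = 0.0227).

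Of the upstream factors and corepressors 15 of 19 were measured, and 5 differed among the groups by the F test, against 16.9% of all genes. In GL relative to BL 4 passed, where 17.1% of all genes did. Among them 1 rose, Nab2, an EGR corepressor that EGR factors themselves induce (0.98 ± 0.22, adjusted p = 0.00429). The other 3 fell: its relative Nab1 (-0.92 ± 0.17, adjusted p = 0.000826) and the kinases Mapk9 (-0.94 ± 0.24, adjusted p = 0.0102) and Mapk14 (-0.59 ± 0.18, adjusted p = 0.0300). In SL relative to BL 0 passed in limma, beside 5.03% of all genes. Elk3, an ETS partner of serum response factor, measured 297.9 and 129 units in SL LRC, against 68.1 and 17.6 in SL non-LRC, of which 1 array was above background. It was the 1 gene of this list called for the SL label (limma, adjusted p = 0.0443), beside 4.19% of all genes. For the label in BL 0 of these genes passed, beside 1.53% of all genes.

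Of the heat shock and stress genes, some of which are known to be induced during dissociation, 16 of 18 were measured. By the F test 6 of them differed among the groups, against 16.9% of all genes. In SL relative to BL 1 rose, the small heat shock protein Hspb1 (0.62 ± 0.13, adjusted p = 0.00845), and 1 fell, Hsp90aa1 (-0.56 ± 0.11, adjusted p = 0.00678), with a list median of -0.0090. In GL relative to BL 2 rose, among them Hspb1 (1.13 ± 0.16, adjusted p = 0.000108). There 3 fell, among them the co-chaperone Dnajb4 (-1.398 ± 0.17, adjusted p = 1.96e-05), and the list median was -0.075. For the label 0 passed in BL and 2 fell in SL, Hspd1 (-0.79 ± 0.21, adjusted p = 0.0438) and Dnaja1 (-0.91 ± 0.19, adjusted p = 0.0116). Of all genes 5.03% were called in SL relative to BL, 17.1% in GL relative to BL, 1.53% for the BL label and 4.19% for the SL label. The part of dissociation in the members' values was not tested.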

How the data were processed

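RNA of 12 samples in 5 groups, named in the sample titles, was measured on 1-colour Affymetrix type arrays. The deposited values are linear intensity values. Recomputed here, the 2% trimmed mean of every array was 500.002 to 500.003, so the authors had brought the arrays to a common level. The software is not given in the sources used here, nor are the sorting gates. The design assumed log2 values, so log2 was taken here with nothing added. Of 45101 probe sets, 34945 map to 1 gene by the platform annotation, and per gene the probe set of highest mean log2 was kept (18193 genes). Background was the 95th percentile of 27 bacterial control probe sets per array, 22.4 to 42.6 units. Where 1 side never exceeded it, folds are lower bounds. The number of arrays limits the precision.

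Differences come from limma 3.58.1 in R 4.3.3, with 1 fit of 5 group means over all 12 arrays, eBayes moderation along a mean-variance trend, and p-values adjusted by Benjamini-Hochberg over all genes at 0.05. The script was tested on simulated data. Errors beside differences are moderated standard errors. SL and BL without a label mean the average of both label groups. Members and lists were chosen with earlier results of these data known. All 10 members are named, and up to 5 genes per other list by the smallest F-test p among those called. Genes beyond that rule are named only to spell out a count of 5 or fewer. The mean level for likeness averages the members' z-scores over the arrays.

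Replicate numbers come from the sample titles. Deviations from group means of BL LRC and BL non-LRC arrays of the same number correlated at 0.32, 0.20 and 0.18 over 10371 genes. Between SL LRC and SL non-LRC the value was 0.037. From these values the numbers were taken to pair the BL arrays. However, BL LRC 1 and BL non-LRC 1 are also the BL arrays of low BioB and of Y-linked signal not above background. The block in BL therefore also takes up the array set and this sex-linked difference. Correlations between arrays of unlike number were not computed, so a pairing beyond these differences was not tested. The block in BL sums to 0 over each BL group, which leaves every difference unchanged and alters its error alone. Alternatives covered scaling, an added constant, a background filter, averaging of probe sets, the variance trend, the array set, replicate blocks and each array left out. Promoter windows were taken from RefSeq (GRCm38.p6). Figures used Python 3.11.15 and matplotlib 3.10.9.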

Additional observations from a re-analysis of the deposited data

How the results depend on the processing

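With 2 or 3 arrays a group, only differences that are large against the spread between arrays can pass. The Egr2 calls for the label in both layers and for SL and GL relative to BL held in every alternative run. Leaving out 1 of 2 arrays assumes that the lone array varies like the other groups. The number of members called then ranged from 1 to 2 for the BL label (2 with all arrays) and from 1 to 3 for the SL label (2). It ranged from 5 to 7 for SL relative to BL (6), from 2 to 5 for SL LRC relative to BL LRC (5), from 0 to 4 for SL non-LRC relative to BL non-LRC (3), from 0 to 2 for GL relative to SL (1) and from 5 to 7 for GL relative to BL (6).

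Without a mean-variance trend the counts were 1 for the BL label, 1 for the SL label, 3 for SL relative to BL, 0 for SL LRC relative to BL LRC, 0 for SL non-LRC relative to BL non-LRC and 0 for GL relative to SL. With all probe sets of a gene averaged they were 1 for the BL label, 1 for the SL label and 2 for GL relative to SL. With the array set term they were 1 for the SL label, 1 for SL non-LRC relative to BL non-LRC and 2 for GL relative to SL. Arrays of high BioB alone gave 1 for the BL label. Centring arrays on their medians gave 1 for the SL label and kept the order of the 5 groups for 4 of 10 members, against 8 under quantile normalisation. The median log2 intensity was 7.65 in GL and 7.42 in SL LRC, so this centring lowers GL against SL LRC by that gap. With the replicate block in BL only the counts were 3 for the BL label, 4 for the SL label and 2 for GL relative to SL. With the replicate block over all arrays, where the numbers of SL and GL arrays share only a number, they were 2 for the BL label, 3 for the SL label and 8 for GL relative to BL.

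No called difference changed sign. Of those not called, the array set term gave -0.050 (Egr1), -0.16 (Fosb) and 0.48 (Ier2) for the SL label, 0.14 for Atf3 in SL non-LRC relative to BL non-LRC, -0.32 for Fosb in GL relative to SL, -0.050 for Atf3 in GL relative to BL, and -0.00063 for Fosb in the difference of label effects. High-BioB arrays alone gave 0.14 (Fos) and -0.054 (Junb) for the BL label and -0.050 for Atf3 in GL relative to BL. Median centring gave 0.070 for Ier2 in the SL label, -0.067 for Zfp36 in GL relative to SL and -0.042 for Atf3 in GL relative to BL, where the replicate block over all arrays gave -0.036. Quantile normalisation gave -0.067 for Junb in the BL label, and averaged probe sets gave -0.40 for Egr3 in the difference of label effects.

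Leaving out 1 array, the BL label difference ranged from -0.43 to 0.37 (Fos), -0.50 to 0.28 (Fosb), -0.072 to 0.21 (Junb), -0.069 to 0.61 (Atf3) and -0.070 to 0.12 (Zfp36). The SL label difference ranged from -0.14 to 0.38 (Egr1), -0.13 to 0.26 (Zfp36) and -0.70 to 0.59 (Ier2). SL non-LRC minus BL non-LRC ranged from -0.084 to 0.58 (Fos), -0.12 to 0.43 (Fosb), -0.42 to 0.51 (Junb) and -0.59 to 0.29 (Atf3). GL minus SL ranged from -0.31 to 0.83 (Fosb), -1.30 to 0.65 (Atf3), -0.017 to 0.21 (Zfp36) and -0.64 to 0.0065 (Ier2), and GL minus BL from -0.88 to 1.07 (Atf3). The difference of label effects ranged from -0.036 to 1.12 (Egr3), -0.17 to 0.23 (Zfp36) and -0.46 to 0.83 (Ier2). The cause of these changes was not tested.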
